A study of Homo sapiens with 4 samples.

Results

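Long intergenic noncoding RNAs (lincRNAs) are long transcripts that lie between protein-coding genes and carry no long reading frame. Those expressed in MDA-MB-231 cells are described here before and after inhibition of TEAD. MDA-MB-231 is a human breast cancer line of the triple-negative, basal type, and TEAD proteins are the DNA-binding partners through which YAP and TAZ, the effectors of the Hippo pathway, activate transcription. MGH-CP1 is a small molecule that occupies the lipid pocket of TEAD and blocks its palmitoylation. Cells received MGH-CP1 at 10 µM for 24 h (2 libraries) or vehicle control (2 libraries), and poly(A)-selected RNA was sequenced. The methods of the study give the dose as 10 mM, and this difference from the labels was not resolved. Nothing in the labels says that the libraries of a condition came from separate cultures. Each p-value from limma, the linear model used below, sets a difference against the spread between libraries. That spread is shared in part over all genes tested, and it may be technical.

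The lincRNAs were chosen by measured values. Of the 48162 genes in the table, 6015 are typed as lincRNA, and 4234 of these are listed at 0 in every library. A mean of at least 1 FPKM (fragments scaled by gene length and by the depth of the library) over the 4 libraries was required, and host genes of small nucleolar RNAs named SNHG, with GAS5, ZFAS1 and MIR210HG, were left out by name, which removed 2. This left 246 lincRNAs among 12080 genes that pass the same minimum. Level was therefore used to select them and is given as a description. The difference between MGH-CP1 and vehicle control was not used by the rule, but the minimum can be passed through 1 condition alone: 207 of the 246 had a mean of at least 1 FPKM in both conditions, 27 only after MGH-CP1 and 12 only in vehicle control. Of the 27, 19 were called higher, and of the 12, 5 were called lower, so these calls follow in part from the selection. The last members inside the limit were RP11-13N13.2, KB-1460A1.1 and CTD-2086O20.3, at means of 1.02, 1.02 and 1.01 FPKM. The first lincRNAs outside it were RP11-206L10.2, RP11-242D8.1 and RP13-297E16.4, at 0.991, 0.978 and 0.977 FPKM.

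LincRNAs act in several known ways. Some build nuclear bodies, as NEAT1 does for paraspeckles, where RNA-binding proteins collect around it. Others bind proteins in the cytoplasm, are cut into microRNAs by Drosha and Dicer, or are transcribed from the same control region as a neighbouring protein-coding gene. Most are expressed at low levels and in few cell types.

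The files carry the type that an older annotation gave each gene. Of the 246 identifiers, 172 are in GENCODE release 29, where 145 are still lincRNA. Another 6 are protein-coding there, among them LINC00493 (SMIM26), LINC00116 (MTLN), both of which encode small mitochondrial proteins, and RP11-21N3.1 (NCBP2AS2). A further 2 are small nucleolar RNAs, and 4 carry current symbols that start with SNHG under clone names that the rule on names does not reach. Where a clone name has a current symbol, that symbol follows in parentheses.

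Some of the lincRNAs are the primary transcripts of microRNAs, short RNAs that pair with messenger RNAs through a seed at bases 2 to 8. The mature microRNAs whose host transcripts changed most are shown 5′ to 3′ with the seed in capitals, as RefSeq gives them on GRCh38.p14, because the seed decides which messages a microRNA can pair with. The libraries did not measure mature microRNAs. RP6-99M1.2 (MIR222HG) spans a pair that share a seed, at chrX:45746180-45746202 and chrX:45747036-45747056 on the minus strand, within an intron of the host in release 29:
hsa-miR-221-3p: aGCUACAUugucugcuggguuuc
hsa-miR-222-3p: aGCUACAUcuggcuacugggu

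In the later GENCODE gene model, CTD-3252C9.4 (MIR23AHG) carries a cluster of hairpins in its exon. Whether the interval counted here includes these hairpins was not tested, since no coordinates were converted between genome builds. The mature sequences lie at chr19:13836595-13836615, chr19:13836447-13836467 and chr19:13836289-13836310 on the minus strand, and their seeds differ:
hsa-miR-23a-3p: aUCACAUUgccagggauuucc
hsa-miR-27a-3p: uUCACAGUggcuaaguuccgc
hsa-miR-24-3p: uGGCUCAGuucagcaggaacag

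MIR22HG and MIR137HG carry in an exon the microRNAs at chr17:1713914-1713935 and chr1:98046091-98046113, both on the minus strand:
hsa-miR-22-3p: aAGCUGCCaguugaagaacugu
hsa-miR-137-3p: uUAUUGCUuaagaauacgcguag

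The libraries held 25455533 and 25508824 fragments in vehicle control and 17997221 and 17577930 after MGH-CP1, so a value of 1 FPKM in a gene of 1 kb rests on 17.6 to 25.5 fragments. Mitochondrial genes took 0.418% and 0.447% of fragments in vehicle control and 1.53% and 1.57% after MGH-CP1. With all libraries thinned to the same depth, 70 lincRNAs were called higher and 26 lower, and with mitochondrial genes left out of the totals, 76 and 30. Of the markers of the line, VIM, CD44, AXL and CAV1 had condition means between 168 and 387 FPKM. By contrast, ESR1, PGR and PTPRC lay below 0.03 FPKM and CDH1 at 0.326 and 0.605 FPKM (PECAM1 was not found under that name). The TEAD targets CYR61, CTGF and ANKRD1 fell by 0.75, 0.66 and 0.66 on the log2 scale (limma, adjusted p = 3.29e-05, 0.000102 and 5.88e-05).

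After MGH-CP1, 76 of the 246 lincRNAs were called higher and 34 lower. A call is an adjusted p below 0.05 from limma on log2(FPKM + 1), with Benjamini-Hochberg adjustment over all 12080 genes. These are 30.9% and 13.8% of the lincRNAs. Over all genes tested, 27.1% were called higher and 23.8% lower. The share called higher was near this background, and the share called lower was below it. The median log2 fold change was 0.15 over the lincRNAs, with an SD of 0.027 over the 4 pairs of libraries, and 0.01 over all genes. These pairs reuse the same 4 libraries, so they are not independent and the SD is no standard error of the median. In 114 lincRNAs (46.3%) both MGH-CP1 libraries lay above both vehicle control libraries, and in 57 (23.2%) both lay below. The same held for 39.8% and 37.4% of all genes. Quantile normalization moved the calls to 54 higher and 45 lower, and the median to 0.02.

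**Figure D1:**
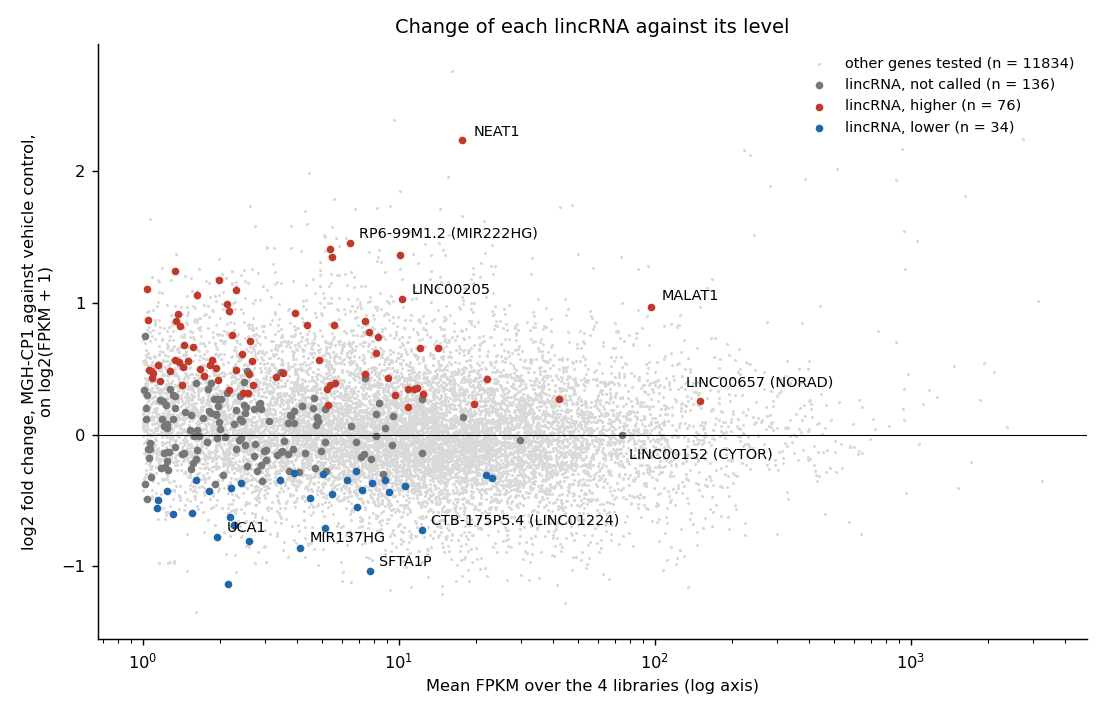
Log2 fold change of MGH-CP1 against vehicle control (vertical axis, on log2(FPKM + 1)) against the mean FPKM over the 4 libraries (horizontal log axis), for 246 lincRNAs (large points, coloured by call) and 11834 other genes tested (small grey points). The 76 lincRNAs called higher reach from NEAT1 at 2.24 down to small changes, the 34 called lower reach down to -1.14, and most lincRNAs lie at the low end of the level axis.

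LincRNAs were expressed at low levels, and the share called varied with level. Their median was 2.49 FPKM, against 11.6 FPKM for protein-coding genes that passed the same minimum. Only 24 reached 10 FPKM and 3 reached 50 FPKM. At 1 to 2 FPKM, 28 of 96 lincRNAs were called higher and 8 lower, which is 29.2% and 8.33%. Protein-coding genes of that level gave 25.0% and 6.31%, so at this level both kinds of gene were called higher more often than lower. At 2 to 5 FPKM the shares were 21.4% and 13.1% for lincRNAs against 25.7% and 14.6% for protein-coding genes. The shares of calls for a rise lay further apart at 5 to 20 FPKM, where 26 of 58 lincRNAs (44.8%) were called higher and 13 (22.4%) lower, against 26.1% and 26.4% of protein-coding genes. No test of that difference was made, since the lincRNAs were selected with results of these data known.

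**Figure D2:**
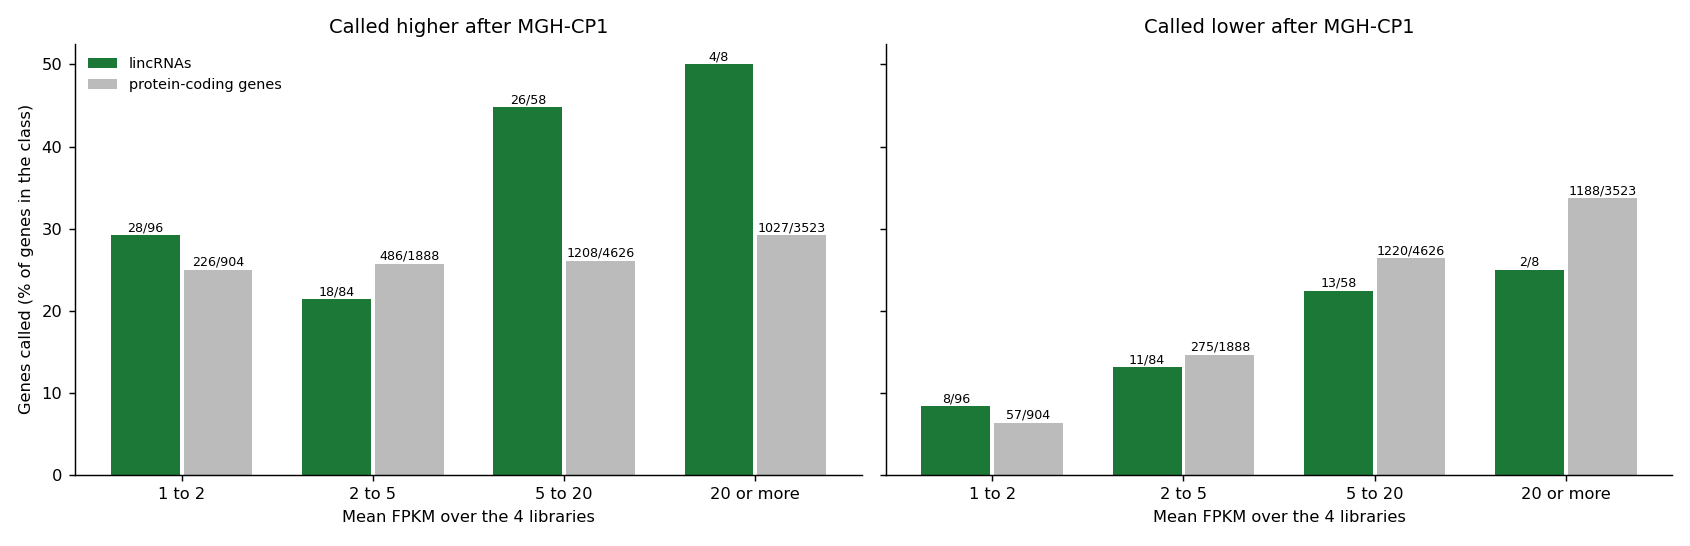
Share of genes called higher (left) and lower (right) after MGH-CP1, in percent of the genes of each class of mean FPKM, for lincRNAs (green) and protein-coding genes (grey), with the counts above the bars. The classes from 1 to 5 FPKM look alike for both kinds of gene, while at 5 to 20 FPKM 26 of 58 lincRNAs were called higher.

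NEAT1 gave the largest rise of the 246. This RNA is the scaffold of paraspeckles and lies at chr11:65190245-65213011 on the plus strand (hg19, as for the position of every gene below). Its level was 5.09 and 6.01 FPKM in vehicle control and 30.9 and 28.8 FPKM after MGH-CP1, from 2945, 3488, 12661 and 11494 fragments. Both treated libraries stood far above both controls, with means of 5.55 ± 0.65 and 29.8 ± 1.54 FPKM (SD, n = 2), a ratio of 5.38. The log2 fold change was 2.24 (SE 0.08, limma, adjusted p = 3.15e-06), and the exact permutation test of the 4 libraries gave 0.333, the smallest p it allows. The short polyadenylated form of NEAT1 and the long form that builds paraspeckles share their first bases and were counted as 1 gene of 22743 bases. These values from poly(A)-selected RNA therefore do not tell which form rose.

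MALAT1, an abundant RNA of nuclear speckles, starts 52221 bases downstream of NEAT1, at chr11:65265233-65273940 on the same strand. Vehicle control libraries gave 62.5 and 63.9 FPKM, and MGH-CP1 libraries 168.7 and 91.8 FPKM. The groups did not overlap, but the treated libraries differed from each other more than the lower of them did from the controls. The log2 fold change was 0.97 (SE 0.22, limma, adjusted p = 0.0077). It was 0.53 without the first MGH-CP1 library (adjusted p = 0.0014) and 1.40 without the second (adjusted p = 7.81e-05). The exact permutation test again gave 0.333. The mature 3′ end of MALAT1 is not polyadenylated, so poly(A) selection captures it in part. Of the other genes of this stretch, FRMD8, upstream of NEAT1, rose by 0.21 on the log2 scale. AP000769.1, a gene typed as protein-coding that lies between NEAT1 and MALAT1 and was named after its values were seen, went from 3.23 and 2.83 FPKM to 6.98 and 5.99 FPKM.

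Of 14 listed genes for proteins of paraspeckles, all were tested, 10 were called lower and 0 higher (by limma), and the median log2 fold change was -0.27. Their means ran from 13.5 to 233 FPKM, and among all 3563 genes at a mean of 20 FPKM or more 33.6% were called lower and 29.2% higher, against 23.8% and 27.1% of all genes tested. The core proteins SFPQ, NONO and PSPC1, which hold the RNA, fell by 0.37, 0.22 and 0.35 on the log2 scale (limma, adjusted p = 0.000376, 0.0037 and 0.0013). NUDT21, a subunit of the cleavage factor that favours the short NEAT1 form, fell by 0.53 from a mean of 36.3 to 24.8 FPKM (adjusted p = 0.000219). TAF15, EWSR1 and HNRNPK had log2 fold changes between -0.11 and -0.08 and were not called. No rise was called with voom or at an unadjusted p under 0.05 either (0 and 0), since all 14 estimates lie below 0.

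**Figure D3:**
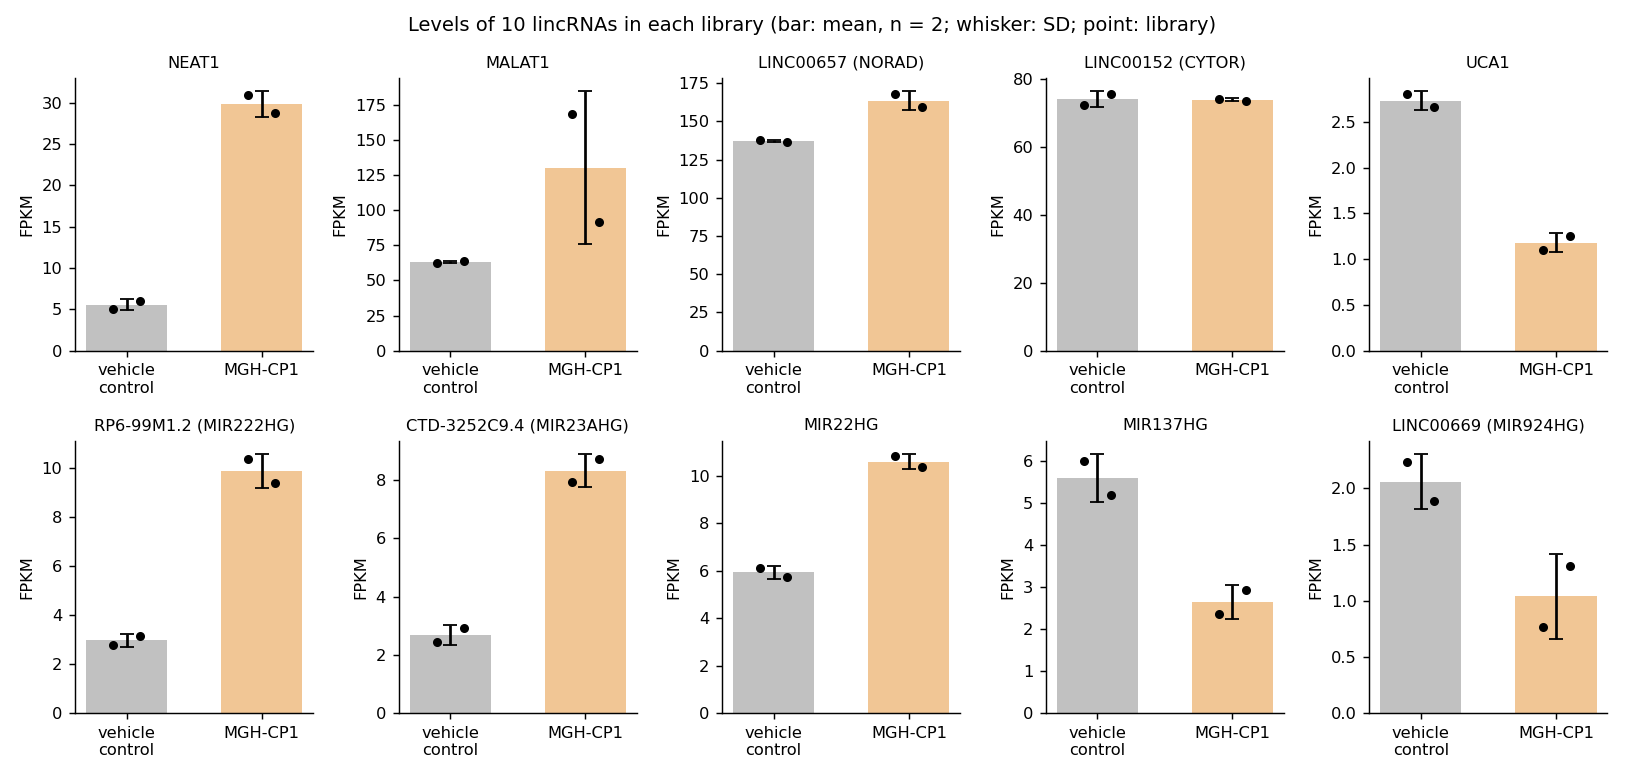
FPKM (vertical axes, from 0) of 10 lincRNAs in vehicle control and after MGH-CP1; bars are means of 2 libraries, whiskers are SD and points are libraries. NEAT1 rose from 5.55 to 29.8 FPKM with little spread, the MALAT1 libraries after MGH-CP1 lay at 168.7 and 91.8 FPKM, and LINC00152 stayed near 74 FPKM.

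The microRNA hosts moved in both directions. The list of host genes holds 15, of which 2 are among the 246, MIR22HG called higher and MIR137HG called lower. Another 8 lincRNAs whose later GENCODE gene model spans a RefSeq microRNA on its own strand were found by position, after the values had been seen. MIR222HG, listed as RP6-99M1.2 at chrX:45604639-45629677, gave 2.79 and 3.17 FPKM in vehicle control and 10.4 and 9.38 FPKM after MGH-CP1. That is a rise of 1.45 on the log2 scale (SE 0.09, limma, adjusted p = 2.46e-05), second among the lincRNAs. MIR23AHG, listed as CTD-3252C9.4 at chr19:13945330-13947103, gave 2.44 and 2.92 against 7.92 and 8.72 FPKM, and rose by 1.34 (SE 0.10, limma, adjusted p = 3.84e-05). MIR22HG, at chr17:1614805-1620468, gave 6.12 and 5.75 against 10.8 and 10.4 FPKM, and rose by 0.74 (SE 0.07, limma, adjusted p = 0.000122). In all of these the treated libraries lay above both controls by several times the distance between replicates.

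MIR137HG, at chr1:98453556-98515419, moved the other way. Its levels were 5.999 and 5.20 FPKM in vehicle control and 2.36 and 2.93 FPKM after MGH-CP1, and the log2 fold change was -0.86 (SE 0.11, limma, adjusted p = 0.000462). LINC00669 (MIR924HG) fell from 2.23 and 1.89 to 0.771 and 1.31 FPKM, with a log2 fold change of -0.60 (adjusted p = 0.012). AC069513.3 (MUC20-OT1), which spans miR-570, had a log2 fold change of 0.34 (adjusted p = 0.034). That call was lost without the first vehicle control library or either MGH-CP1 library. LINC00472, whose locus holds miR-30a and miR-30c-2, was at 6.31 and 6.33 FPKM and then 6.72 and 6.62 FPKM, and was not called (adjusted p = 0.46). RP11-308N19.1 (LINC01505), RP11-281P23.2 and LINC00152 were not called either.

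Of 40 listed long noncoding RNAs of known role, 36 were found in the table and 6 are among the 246, 1 called higher and 2 lower. LINC00657 (NORAD), which binds the Pumilio proteins in the cytoplasm and guards chromosome number, was the most abundant lincRNA. It lies at chr20:34633544-34638882 and gave 137.5 and 136.5 FPKM in vehicle control and 167.8 and 159.2 FPKM after MGH-CP1. The groups were apart, by a log2 fold change of 0.25 (SE 0.05, limma, adjusted p = 0.0030), a ratio of 1.19. UCA1, a lincRNA raised in bladder and other carcinomas, was at 2.80 and 2.66 FPKM and then at 1.11 and 1.25 FPKM. It fell by 0.78 on the log2 scale (SE 0.11, limma, adjusted p = 0.000703). AC017048.3 (LINC01116) went from 9.47 and 10.6 to 7.31 and 8.09 FPKM, a log2 fold change of -0.34 (adjusted p = 0.0090).

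The others of that list gave no call. LINC00152 (CYTOR), a lincRNA linked to proliferation in several carcinomas, was at 72.4 and 75.8 FPKM and then at 74.3 and 73.8 FPKM. Its log2 fold change was -0.001 with an SE of 0.05, the treated values lying inside the range of the controls. LINC00152 has a near-identical copy elsewhere on chromosome 2, the host of miR-4435-2 (AC068491.1), at 52.8 and 58.2 FPKM and then 53.9 and 51.6 FPKM, and how fragments were split between the copies is not given in the sources used here. JPX, which acts in X inactivation, was at 8.34 and 8.04 FPKM and then 8.08 and 8.17 FPKM. EPB41L4A-AS1 had a log2 fold change of 0.22 (adjusted p = 0.16), with 1.91 and 2.56 FPKM against 2.81 and 2.70 FPKM.

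The largest rises besides NEAT1 and the hosts of microRNAs were in lincRNAs with little known function. LINC00106, at chrX:1515320-1518295, rose by 1.41 on the log2 scale (SE 0.09, limma, adjusted p = 2.53e-05), from 2.44 and 2.54 to 8.71 and 7.84 FPKM. RP11-472B18.2, at chr4:39549456-39551432, rose by 1.36 (SE 0.12, limma, adjusted p = 0.000102), from 6.20 and 4.38 to 14.6 and 15.3 FPKM. Its nearest protein-coding gene SMIM14, 1109 bases away, rose by 1.18 as well. RP4-758J18.10 (LINC01770) gave 0.867 and 0.804 FPKM and then 3.16 and 3.14 FPKM, a log2 fold change of 1.18 (SE 0.11). RP13-463N16.6 (LASTR), a stress-responsive lincRNA that acts on splicing, gave 0.845 and 1.35 FPKM and then 4.46 and 2.61 FPKM, a log2 fold change of 1.09 (SE 0.20). The treated libraries of LASTR lay far apart, at 56 and 32 fragments.

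Another 3 of the 10 largest rises rest on few fragments. RP11-861E21.1, with a counted length of 168 bases, had 2 and 1 fragments in vehicle control and 10 and 4 after MGH-CP1. CTD-2134A5.3, of 127 bases, had 2 and 0 fragments and then 5 and 3, and RP11-675F6.3 had 3 and 11 and then 14 and 20. For every gene the model takes part of its spread from other genes, and for these 3 no fold is given. Over all 246, 27 had fewer than 10 fragments in some library and 108 had a mean below 50. Of the 138 with at least 50, 45 were called higher and 24 lower.

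**Figure D4:**
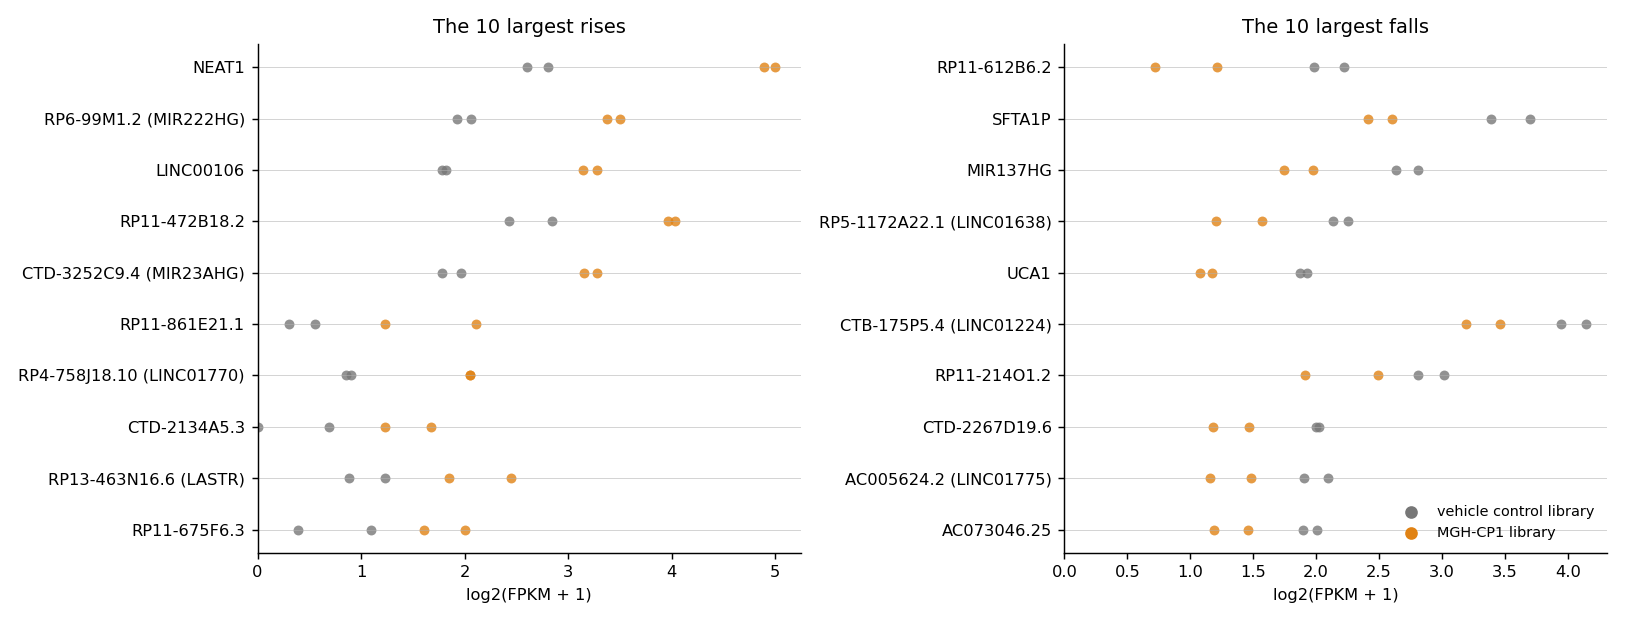
Level on log2(FPKM + 1) (horizontal axes) in each vehicle control library (grey) and each MGH-CP1 library (orange), for the 10 lincRNAs with the largest rise (left) and the largest fall (right) among those called with libraries that do not overlap. NEAT1 stands apart at the top, and RP11-861E21.1, CTD-2134A5.3 and RP11-675F6.3 lie at the low end with wider spacing between replicates.

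At a log2 fold change of at least 1 in size, 11 lincRNAs were called higher and 2 lower, and over all genes tested 207 and 33. SFTA1P, a transcribed pseudogene of the surfactant-associated family at chr10:10826400-10836943, had the largest fall that rests on more than a few fragments. It went from 12.0 and 9.50 FPKM to 4.33 and 5.09 FPKM, a log2 fold change of -1.04 (SE 0.11, limma, adjusted p = 0.00023), and its controls had 212 and 168 fragments. RP11-612B6.2, which was lower still at -1.14, had 16 and 13 fragments against 2 and 4. RP5-1172A22.1 (LINC01638) gave 3.76 and 3.38 FPKM and then 1.31 and 1.96 FPKM, a log2 fold change of -0.80 (adjusted p = 0.0017). CTB-175P5.4 (LINC01224), among the 15 most abundant lincRNAs, gave 16.7 and 14.4 FPKM and then 8.14 and 10.0 FPKM, a log2 fold change of -0.72 (SE 0.10, limma, adjusted p = 0.000779). RP11-214O1.2, CTD-2267D19.6, AC005624.2 (LINC01775) and AC073046.25 complete the 10, with log2 fold changes of -0.71, -0.69, -0.68 and -0.63. In RP11-214O1.2 the treated libraries gave 4.64 and 2.75 FPKM and so differed from each other by more than the nearer one did from the controls, at 6.02 and 7.10 FPKM.

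Of the 10 most abundant lincRNAs, 5 were called higher, 2 lower and 3 neither. A mean of 20 FPKM or more was reached by 8 lincRNAs, 4 of them called higher and 2 lower. Among all genes at that level 29.2% were called higher and 33.6% lower, and the difference was not tested. Besides LINC00657, MALAT1 and LINC00152, LINC00493 (SMIM26) was at 35.3 and 41.5 FPKM and then 46.3 and 46.2 FPKM, a log2 fold change of 0.27 (adjusted p = 0.017), a call that was lost without the first vehicle control library or either MGH-CP1 library. CTD-2021J15.2 (LINC00973) rose by 0.42, from 19.6 and 17.9 to 27.6 and 23.6 FPKM (SE 0.08, adjusted p = 0.0034). RP11-220I1.1 had a log2 fold change of 0.23 (adjusted p = 0.0082), and its adjusted p was 0.051 without the first MGH-CP1 library. RP11-513I15.6 had one of -0.33 (adjusted p = 0.0036), from 26.6 and 25.0 to 19.3 and 21.2 FPKM. RP11-343N15.5 had one of -0.31 (adjusted p = 0.023), and the call was lost without the first vehicle control library or the second MGH-CP1 library. CTC-503J8.6 and RP11-21N3.1 were not called, at -0.04 and 0.13.

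The 246 lincRNAs took 0.313% and 0.316% of all fragments in vehicle control and 0.490% and 0.416% after MGH-CP1. NEAT1, MALAT1 and LINC00657 held 44.6% and 44.9% of these lincRNA fragments in vehicle control and 62.7% and 55.4% after MGH-CP1. NEAT1 alone went from 3.70% and 4.32% to 14.4% and 15.7%. Without NEAT1 and MALAT1, the lincRNAs took 0.247% of fragments in both vehicle control libraries and 0.272% and 0.271% after MGH-CP1.

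The lincRNAs were also grouped by their position relative to protein-coding genes. On the same strand and within 5000 bases downstream of a protein-coding gene lay 54. Of these, 11 (20.4%) were called higher and 13 (24.1%) lower, with a median log2 fold change of -0.003. Over all genes tested the shares were 27.1% and 23.8%. Over genes at a mean of 2 to 5 FPKM, near the median level of these 54, they were 25.7% and 13.9%. For all 54 the gene upstream was tested, and in 47 (87.0%) both estimates had the same sign. In 18 pairs both were called, and all 18 had the same direction. Over all 188 lincRNAs whose neighbour was tested, 66.5% had its sign and 36 of the 48 pairs with both called had the same direction, and the share with the same sign was 62.8% for those apart from any protein-coding gene and 68.8% for same-strand overlaps. The difference between these classes was not tested. Pearson's r over the 54 pairs was 0.73 and Spearman's rho 0.77, given as a description, since both values of a pair come from the same 4 libraries. Fragments of a transcript that runs past the annotated end of the upstream gene cannot be told apart from those of such a lincRNA in these values. Examples, chosen after the values were seen except for CTD-2267D19.6, are CTD-2267D19.6, 286 bases past CDC6, a replication licensing factor, at -0.69 with CDC6 at -0.82, and RP11-49C24.1, past the splicing factor gene SF3B3, at -0.48 with SF3B3 at -0.51. LINC00261 lies 2363 bases past FOXA2, which encodes a pioneer transcription factor, and both rose, by 0.92 and 0.56.

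Another 28 lincRNAs lay head to head with a protein-coding gene, with start sites at most 5000 bases apart on opposite strands. Of them 10 (35.7%) were called higher and 2 (7.14%) lower, against 27.1% and 23.8% of all genes tested. Over genes at a mean of 2 to 5 FPKM, where the median level of this class lies, 25.7% and 13.9% were called. Of 25 whose partner was tested, 13 (52.0%) had the same sign, against the 66.5% over all 188 pairs. In 6 pairs both were called, and 2 of these 6 had the same direction. LINC01770 and VWA1, which encodes a matrix protein, rose together, by 1.18 and 0.94, their ends 288 bases apart. RP11-627G18.3 (GATA6-AS1) and GATA6, named after the values were seen, rose by 0.99 and 0.24. RP11-441O15.3 (GOT1-DT), also named after the values were seen, rose by 0.56 while GOT1 fell by 0.43. LINC00106 rose by 1.41 beside SLC25A6, which had a log2 fold change of 0.003 at 222 FPKM in both conditions.

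**Figure D5:**
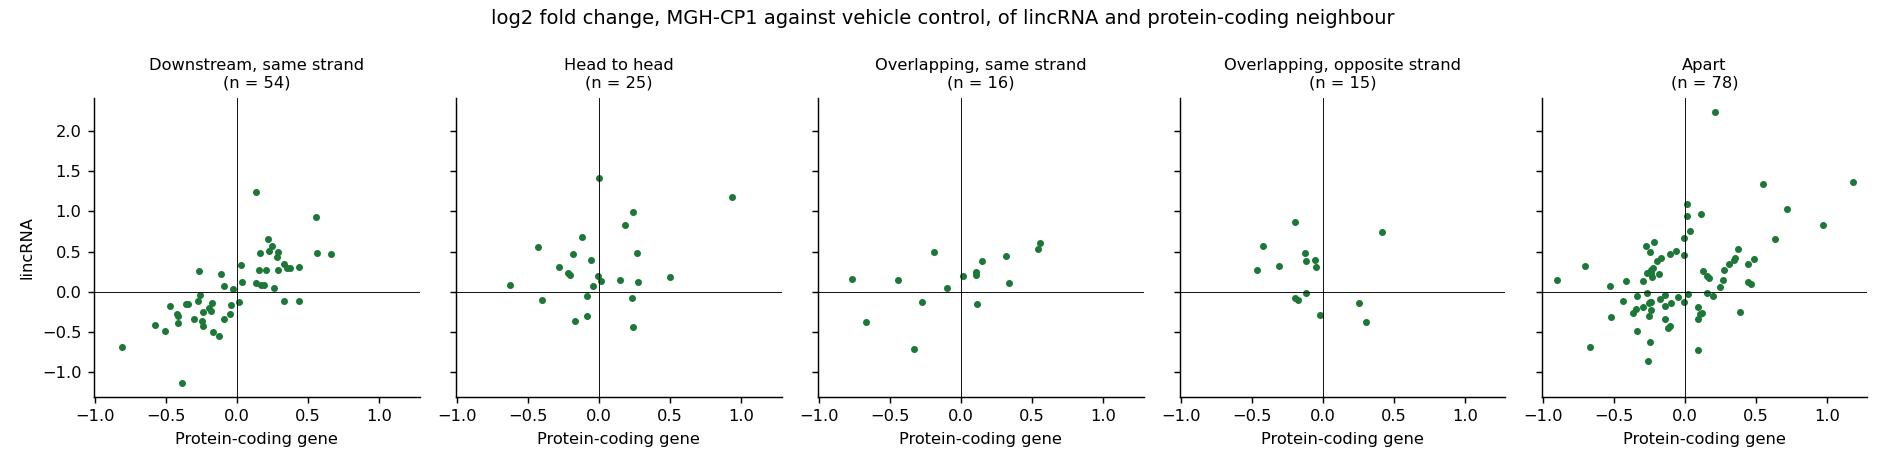
Log2 fold change of each lincRNA (vertical axis) against that of its protein-coding neighbour (horizontal axis), by position, for the 188 lincRNAs whose neighbour was tested. Points follow a rising line for the 54 lincRNAs just downstream on the same strand and scatter in all 4 quadrants for the 25 head to head.

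On the same strand 20 lincRNAs overlapped a protein-coding gene, with 8 called higher and 1 lower, and on the opposite strand 20, with 6 higher and 0 lower by limma (1 at an unadjusted p under 0.05, and 0 by voom). Over all genes tested 27.1% were called higher and 23.8% lower. The median level was 2.055 FPKM for the same-strand class and 1.94 FPKM for the opposite-strand class. Over genes at a mean of 1 to 2 FPKM 25.5% were called higher and 6.68% lower, and at 2 to 5 FPKM 25.7% and 13.9%. Of the 16 on the same strand whose partner was tested, 11 had its sign. Of the 15 on the opposite strand whose partner was tested, 5 had the same sign as it. MIR22HG overlaps WDR81 in this way, and WDR81 was at a mean of 2.55 FPKM and then 3.73 FPKM. The library preparation described does not mark strand, so fragments from overlapping genes cannot be told apart. The remaining 124 lincRNAs lay apart, with 41 called higher and 18 lower. Leaving out the 89 that overlap any listed gene left 46 called higher and 24 lower of 157.

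Gene structure and annotation were also used to group the lincRNAs. In 80 lincRNAs the counted length equals the span, meaning that the table gives them no intron, and 19 of them were called higher and 12 lower, with a median log2 fold change of 0.10. Of the 166 with an intron, 57 were called higher and 22 lower, with a median of 0.18. The 145 still typed as lincRNA in release 29 had 52 higher and 16 lower. The 74 identifiers that release 29 no longer holds had 15 higher and 14 lower, and a median of 0.06. Over these classes, the shares called ran from 20.3% to 35.9% higher and from 11.0% to 18.9% lower. Over all genes tested they were 27.1% and 23.8%. Over genes at a mean of 2 to 5 FPKM, where the median level of each class lies, they were 25.7% and 13.9%. No test separates these classes, since they also differ in position and level.

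RefSeq's promoter table on GRCh38.p14 holds promoters of 77 of the 246. The letters GGAATG, the core that TEAD proteins bind, were searched on both strands, and 14 of their 91 promoters (15.4%) hold them, against 14.0% of all 35116 promoters of that length. These 14 belong to 12 of the 77 lincRNAs. Of the 12, 4 were called higher and 3 lower, and of all 77, 27 and 8. TGANTCA, the motif of AP-1 factors, was in 13 of the 91 promoters (14.3%) against 7.71% of all promoters. Several promoters of 1 lincRNA are counted separately here, and the 13 belong to 9 of the 77 lincRNAs (11.7%). Of these 9, 6 were called higher and 0 lower by limma (0 at an unadjusted p under 0.05, and 0 by voom). Over all genes tested 27.1% were called higher and 23.8% lower, and no difference between these shares was tested for either motif. The motifs can share 2 letters at an end. Promoters of a lincRNA that rose and of one that fell are shown 5′ to 3′ on the strand of the gene with each GGAATG or its complement in capitals. That of LINC00657 (NORAD), at chr20:36050911-36051210 on the minus strand, holds it at -123 and -116 from the start site:
NORAD: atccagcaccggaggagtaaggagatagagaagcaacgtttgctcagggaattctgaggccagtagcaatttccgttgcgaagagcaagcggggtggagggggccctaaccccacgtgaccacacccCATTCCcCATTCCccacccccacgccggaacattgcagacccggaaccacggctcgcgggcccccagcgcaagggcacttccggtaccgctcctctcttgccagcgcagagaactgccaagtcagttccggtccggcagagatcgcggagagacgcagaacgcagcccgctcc

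That of AC005624.2 (LINC01775), at chr19:2462136-2462435 on the minus strand, holds it at -219:
LINC01775: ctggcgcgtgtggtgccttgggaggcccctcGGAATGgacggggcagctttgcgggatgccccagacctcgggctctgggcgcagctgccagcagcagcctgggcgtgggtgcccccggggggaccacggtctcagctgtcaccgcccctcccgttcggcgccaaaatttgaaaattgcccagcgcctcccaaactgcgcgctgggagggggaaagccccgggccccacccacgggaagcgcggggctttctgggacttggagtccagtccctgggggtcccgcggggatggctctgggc

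LINC00657 rose by 0.25 and LINC01775 fell by 0.68 on the log2 scale, so a match of these letters stands beside a rise in one and a fall in the other. A match is a description of the sequence and shows no binding.

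The calls that held most widely were few. Under 13 other ways of processing the values or choosing the libraries, leaving aside the test with no shared variance, 27 of the 76 rises and 8 of the 34 falls were called each time. Among the rises were NEAT1, MIR222HG, LINC00106, RP11-472B18.2, MIR23AHG, LINC01770, MIR22HG and LINC00657. Of the 27 rises 3, LINC01770 included, and of the 8 falls 1 passed the minimum through 1 condition alone. The matching counts over all genes tested are not given here, so these counts are not read as a trait of lincRNAs. The 8 falls included SFTA1P, MIR137HG, UCA1, LINC01224 and RP11-513I15.6. MALAT1 was not among them, since without a filter on low values its adjusted p was 0.14. With no variance shared between genes, limma called 0 of the 246 in either direction, and 56 had an unadjusted p under 0.05. Limma with voom on fragments recovered from the FPKM called 62 higher and 25 lower.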

How the data were processed

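Poly(A)-selected RNA of MDA-MB-231 cells (2 libraries after MGH-CP1 and 2 of vehicle control) was sequenced. The authors deposited FPKM for 48162 genes with symbol, type, coordinates and length; per the labels' processing notes, CASAVA 1.8, STAR and hg19 were used. The counting tool and its use of strand are not given in the sources used here. From FPKM, length and depth, whole fragments were recovered for 100.0% of values above 0 (tolerance 0.01). FPKM are not counts, so log2(FPKM + 1) of genes with a mean of at least 1 was compared with limma 3.58.1 (R 4.3.3; trend, two-sided; 2 residual and 5.97 prior degrees of freedom) and Benjamini-Hochberg adjustment, threshold 0.05. Fold changes are on that scale and understate changes of low genes. The script was tested on simulated data. The members and lists were chosen with earlier results of these data known. Named lincRNAs are NEAT1 and MALAT1, the 10 most abundant, the 10 largest rises and falls among called genes with libraries that do not overlap, all members of the lists, and 3 on either side of the minimum. Genes were matched by identifier to GENCODE 29 and RefSeq tables, and no coordinates were converted. Some items are not reported here.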

Additional observations from a re-analysis of the deposited data

How the results depend on the processing

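Depth limits what can be seen: 108 of the 246 lincRNAs rest on fewer than 50 fragments on average, and with 2 libraries a condition the exact permutation test cannot go below 0.333. Of the main 76 rises and 34 falls, testing without the filter on low values (24878 genes) left 29 and 9, and the test with no shared variance 0 and 0 (56 at an unadjusted p under 0.05), where NEAT1 had a log2 fold change of 2.24 (adjusted p = 0.059) and MALAT1 0.97 (adjusted p = 0.25). MALAT1 was also not called without the filter (0.97, adjusted p = 0.14). The cause was not tested. Requiring a log2 fold change of at least 0.5 left 42 and 14, and over all 12080 genes tested 1261 and 744. Rises were 48 of 150 lincRNAs at a mean FPKM of at least 2, 46 of 157 that overlap no listed gene and 45 of 138 with at least 50 fragments. Falls were 24 of the 157 and 24 of the 138. At 2 to 5, 5 to 20 and 20 FPKM or more, 11, 13 and 2 lincRNAs fell. Over all genes tested 27.1% were called higher and 23.8% lower. Only those of type lincRNA in GENCODE 29, chosen after seeing the data, gave 52 rises, 16 falls and a median of 0.19. The median log2 fold change, 0.15, was 0.19 with a pseudocount of 0.1, 0.10 with median-ratio scaling, 0.024 with quantile normalization and 0.21 with voom on recovered fragments; the cause was not tested. Quantile normalization gave 54 rises and 45 falls. Leaving out each library gave 58 to 71 rises, 24 to 41 falls, medians of 0.12 to 0.17, and log2 fold changes of 2.14 to 2.34 for NEAT1 and 0.53 to 1.40 for MALAT1.

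The conditions share replicate numbers. With the replicate number as a block, 84 were called higher and 39 lower, the median was 0.15, NEAT1 2.24 and MALAT1 0.97; 75 of the 76 rises and all 34 falls were kept. The difference between replicates 1 and 2 correlated with r = 0.08 over genes between the conditions. With 1 such difference in each condition, this cannot show whether libraries of the same number shared a culture or a batch. Of 42 named lincRNAs, none changed direction past the threshold under any of the 14 alternatives fitted to all genes. Thinning to equal depth was also chosen after seeing the data. AC069513.3 lost its call under quantile normalization, thinning to equal depth and without the first vehicle control library or either MGH-CP1 library, besides the alternatives named above.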

Other observations

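Other kinds of noncoding gene in the table also moved. Of 262 genes typed antisense that passed the minimum, 88 were called higher and 23 lower by limma, and of 195 typed processed transcript, 60 and 19. Their median log2 fold changes were 0.23 and 0.12, and the medians of their mean levels 2.02 and 2.56 FPKM. Over all genes tested 27.1% were called higher and 23.8% lower, and among all genes at a mean of 1 to 2 and of 2 to 5 FPKM 6.68% and 13.9% were called lower, against 8.78% of the antisense genes and 9.74% of the processed transcripts. Of the listed RNAs of known role that the table does not type as lincRNA, DANCR fell by 0.61 on the log2 scale from a mean of 44.9 to 29.2 FPKM (limma, adjusted p = 8.30e-05), and TUG1 fell by 0.16 from 24.9 to 22.2 FPKM (adjusted p = 0.042). CRNDE rose by 0.44, from 8.49 to 11.8 FPKM (adjusted p = 0.0028), and LUCAT1, listed as RP11-213H15.3, rose by 0.49 (adjusted p = 0.0020). LINC-PINT, listed as AC058791.2, TP53TG1 and LINC00467 were also called higher, by 0.44, 0.36 and 0.25 (limma, adjusted p = 0.019, 0.039 and 0.019). PVT1, OIP5-AS1 and LINC00511 had log2 fold changes of 0.09, 0.04 and -0.15 and were not called.

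Hosts of microRNAs outside the 246 moved in both directions too. DLEU2, which holds miR-15a and miR-16-1, fell by 0.97 on the log2 scale, from 8.22 to 3.72 FPKM (limma, adjusted p = 9.11e-05). MIR100HG, listed as RP11-166D19.1, rose by 0.63, and MIR503HG, listed as AC004383.4, by 0.64.

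Below a mean of 1 FPKM lie 1533 lincRNAs with some signal, and in a test of all 24878 genes with signal 33 of them (2.15%) were called higher and 17 (1.11%) lower, against 9.16% and 7.41% of all 24878. The gene listed as hsa-mir-146a, chosen after its values were seen, rose by 0.82 on the log2 scale (limma without the filter, adjusted p = 0.018). It was at 0.205 and 0.221 FPKM in vehicle control and the MGH-CP1 libraries had a mean of 1.15 ± 0.16 FPKM (SD, n = 2). LINC00452, chosen in the same way, had a log2 fold change of -0.61 (adjusted p = 0.035).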
